A study of Mus musculus with 9 samples.

Results

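The C/EBP transcription factor family was followed here through 5 of its genes, Cebpa, Cebpb, Cebpd, Cebpg and Ddit3, among the 32285 gene identifiers counted in each library. They were chosen by name, each matched to an Ensembl identifier, and all 5 had enough counts to be tested. The RNAseq experiment asked how the purine synthesis inhibitor mizoribine (MIZ), which blocks inosine monophosphate dehydrogenase, affects gene expression while preadipocytes turn into adipocytes. It used stromal vascular fraction (SVF) cells, the cells of fat tissue other than mature adipocytes, taken from subcutaneous white fat of 4- to 6-day-old WT mice. Cells were differentiated for 6 days with 25 µM MIZ, differentiated for 6 days with vehicle (DMSO), or left undifferentiated, with 3 libraries each. The differentiated groups shared an induction medium with insulin, dexamethasone and IBMX for 2 days and then a medium with insulin, troglitazone, rosiglitazone and triiodothyronine, whereas the undifferentiated cells were not induced. Each group is a mixed primary culture at a single time, and the day on which the undifferentiated cells were collected is not given in the sources used here. The study's methods describe cells of individual animals plated apart and biological replicates, but the labels tie no library to an animal, so p-values measure the spread between these libraries.

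C/EBPs are basic leucine zipper proteins that bind DNA as dimers, with themselves or with each other. In cultured preadipocytes C/EBPβ and C/EBPδ are known as the early members, raised by cAMP and glucocorticoid signals, and C/EBPα as the late member, which with PPARγ turns on and maintains the genes of the fat cell. C/EBPγ and CHOP, the product of Ddit3, are known mainly as partners that form dimers with the other members. CHOP is best known as a factor induced through ATF4 when protein folding in the endoplasmic reticulum or the supply of amino acids fails.

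On the GRCm38 mouse genome with the GENCODE annotation of that build, Cebpb is a single-exon gene at chr2:167688915-167690418 on the plus strand, and Cebpd lies at chr16:15887286-15891031 on the plus strand. Cebpa lies at chr7:35119293-35121928 on the plus strand and Cebpg at chr7:35046422-35056573 on the minus strand, 62720 bases apart. Ddit3 lies at chr10:127290774-127296288 on the plus strand. Cebpb shares 312 of its 1504 exon bases with Tmem189 and Cebpd 562 of its 3746 with Spidr, both on the opposite strand. Cebpa shares 51 of 2636 exon bases with the antisense gene Gm45091, and Ddit3 shares 68 of 1713 with Mars. A second identifier named Ddit3 covers part of the gene and had 0 counts in every library. The sources used here do not state whether reads were counted by strand. Reads in the bases that Cebpb and Cebpd share with those partners may thus have been counted for either gene or left out. If they were left out, levels of Cebpb and Cebpd per kb of merged exons would be too low.

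The sequence before the start site is shown for the early member Cebpb, for Cebpa, with which it is compared throughout, and for Cebpg, the neighbour of Cebpa on chromosome 7. Each run holds the 250 bases before the RefSeq start on GRCm38.p6, read 5′ to 3′ on the gene's own strand, at chr2:167688665-167688914 (plus), chr7:35119043-35119292 (plus) and chr7:35056567-35056816 (minus). Capitals mark the cAMP response element half-site TGACG and the CCAAT box CCAAT on either strand (CGTCA and ATTGG where the match is on the other strand).
Cebpb: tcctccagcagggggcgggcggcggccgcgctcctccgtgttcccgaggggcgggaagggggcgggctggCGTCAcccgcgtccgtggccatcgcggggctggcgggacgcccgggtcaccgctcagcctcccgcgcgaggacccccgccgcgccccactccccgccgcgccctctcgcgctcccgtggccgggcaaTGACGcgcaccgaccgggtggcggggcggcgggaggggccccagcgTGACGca
Cebpa: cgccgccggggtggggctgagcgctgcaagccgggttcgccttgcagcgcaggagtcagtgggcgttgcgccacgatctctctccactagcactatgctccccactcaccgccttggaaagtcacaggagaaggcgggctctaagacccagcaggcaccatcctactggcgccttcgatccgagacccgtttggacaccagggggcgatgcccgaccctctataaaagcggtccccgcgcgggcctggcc
Cebpg: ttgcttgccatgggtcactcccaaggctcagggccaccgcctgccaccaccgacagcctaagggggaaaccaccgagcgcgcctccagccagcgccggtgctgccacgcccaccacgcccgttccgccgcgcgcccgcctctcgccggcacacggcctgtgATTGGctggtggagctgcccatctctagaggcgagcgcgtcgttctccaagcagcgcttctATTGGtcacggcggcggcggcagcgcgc

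The Cebpb window held 3 matches to TGACG, at positions -180 to -176, -53 to -49 and -7 to -3 from the start, a motif found in 17.9% of 27025 RefSeq promoter windows of this length. That motif was added to the search after the sequences had been seen. The Cebpg window held 2 matches to CCAAT, at -89 to -85 and -28 to -24, and the Ddit3 window held 1 at -77 to -73. CCAAT was found in 34.5% of all windows. The Cebpa window held neither. None of these 4 windows held the full element TGACGTCA (1.62% of windows), the C/EBP site TTGCNNAA (9.55%), the C/EBP-ATF composite TGATGNAAN (3.51%) or the E-box CACGTG (6.05%), each searched on both strands. GC made up 81.6% of the Cebpb window and 66.4% of the Cebpa window. A match is a run of letters, not a bound site, and a window without a match may still hold a site with other letters.

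Levels were given in CPM, counts scaled to the TMM-normalized library size, and a gene was called when edgeR's quasi-likelihood test gave an adjusted p (Benjamini-Hochberg, over all 17173 genes tested) under 0.05. Libraries held 33504937 to 43281818 counts with MIZ, 28760721 to 50262228 with vehicle and 42217231 to 55288455 in undifferentiated cells. Every member had between 1113 and 27397 counts in every library. The SD as a percent of the mean ran from 0.38% for Cebpg with MIZ to 16.4% for Cebpd with MIZ. The lowest of these, at 1931 to 2501 counts, is narrower than counting error alone would give. Vehicle replicate 1, the library with the fewest counts, stood somewhat apart, with a chi-square per degree of freedom of 26.5 and 42.3 against the other vehicle libraries, where other pairs within a group had 3.72 to 15.4. The summed level of 6 adipocyte markers was 938 to 1185 CPM with MIZ, 13760 to 14450 CPM with vehicle and 13.8 to 14.6 CPM in undifferentiated cells. Most of the sum with vehicle was Fabp4 (8901 CPM with vehicle, 476.8 CPM with MIZ). All 6 were lower with MIZ than with vehicle (35.1% of all genes tested). Their log2 fold changes ran from -4.22 for Fabp4 to -0.65 for Cfd, which is named after its value was seen. The labels call all libraries primary adipocytes, but in undifferentiated cells the adipocyte marker Cidec was at 0 counts. Mitochondrially encoded genes held 0.686% to 0.836% of counts with MIZ, 3.82% to 5.002% with vehicle and 0.837% to 0.891% in undifferentiated cells, and the part of this difference in the C/EBP levels was not tested. In bulk RNA, fewer cells of a type and less RNA per cell cannot be told apart.

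With MIZ, 4 of the 5 members fell relative to vehicle and 1 rose. Cebpa fell 7.17-fold, Cebpg 2.31-fold, Ddit3 1.71-fold and Cebpb 1.5-fold, whereas Cebpd rose 1.29-fold. Among all genes tested 35.1% were lower and 35.9% higher with MIZ, so a change as such is common in this comparison. The libraries of the MIZ and vehicle groups did not overlap for any of the 5 members, which was also true of 72.8% of all genes tested. Below, each group is also set against undifferentiated cells, so that any pair of comparisons has a group in common.

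**Figure D1:**
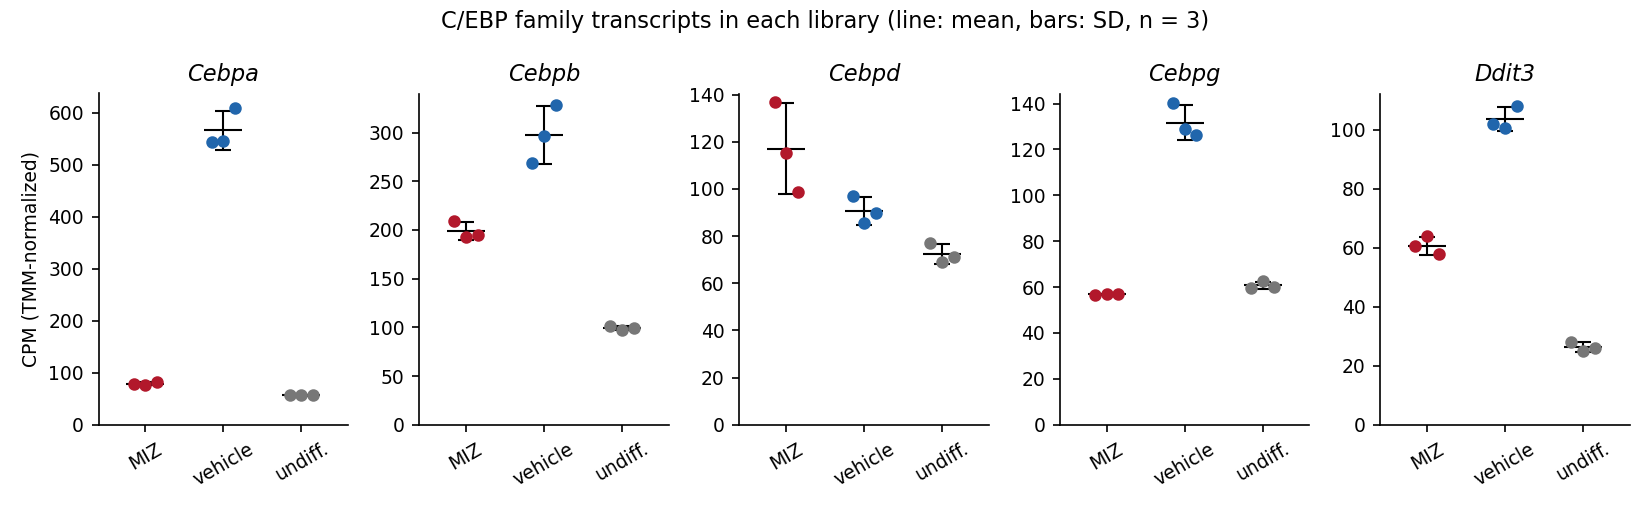
CPM of each C/EBP family gene in every library, with MIZ, vehicle and undifferentiated cells from left to right. Points are libraries, the line is the mean and bars are the SD of 3 libraries. Cebpa with vehicle (544.2 to 609.3 CPM) stands far above the other groups, and Cebpd is highest with MIZ (98.7 to 137.0 CPM).

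Cebpb, which acts early in the known order of adipogenesis, had 209.6, 192.5 and 194.8 CPM with MIZ, 269.0, 296.2 and 328.5 CPM with vehicle, and 100.9, 97.4 and 99.3 CPM in undifferentiated cells. The MIZ libraries lay between the others and overlapped neither group. With MIZ the log2 fold change of Cebpb was -0.58 over vehicle (SE 0.0676, adjusted p = 1.51e-05) and 1.00 over undifferentiated cells (SE 0.0684, adjusted p = 2.88e-07). With vehicle it was 1.59 over undifferentiated cells (SE 0.0692, adjusted p = 2.96e-09). Its opposite-strand partner Tmem189 had a log2 fold change of -0.85 for MIZ over vehicle and 0.13 for vehicle over undifferentiated cells, and averaged 34.9 CPM with MIZ, 62.8 CPM with vehicle and 57.5 CPM in undifferentiated cells.

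Cebpd, the other early member, had 137.0, 115.4 and 98.7 CPM with MIZ, 97.0, 85.3 and 89.7 CPM with vehicle, and 77.0, 69.0 and 71.1 CPM in undifferentiated cells. The MIZ libraries spread the most, and the lowest of them lay just above the highest vehicle library. Cebpd was the only member higher with MIZ than with vehicle, with a log2 fold change of 0.37 (SE 0.102, adjusted p = 0.00726). Without MIZ replicate 1, the highest library, it was 0.24 (adjusted p = 0.0238). Over undifferentiated cells the log2 fold change was 0.69 with MIZ (SE 0.102, adjusted p = 0.000119) and 0.32 with vehicle (SE 0.102, adjusted p = 0.0134). The rise with vehicle was the least firm call of the family, since it was lost without undifferentiated replicate 2 (0.28, adjusted p = 0.0560) and when libraries were scaled by total counts (0.15, adjusted p = 0.212). Spidr, which overlaps Cebpd on the opposite strand, had a log2 fold change of -0.036 for MIZ over vehicle (adjusted p = 0.732).

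Cebpa, the late member, had 78.0, 77.1 and 81.9 CPM with MIZ, 544.2, 545.3 and 609.3 CPM with vehicle, and 57.8, 56.8 and 56.3 CPM in undifferentiated cells. MIZ libraries lay close above the undifferentiated ones and far below every vehicle library. The log2 fold change of Cebpa was -2.84 for MIZ over vehicle (SE 0.0559, adjusted p = 2.49e-11), and 3.72% of all genes tested had a lower one. It was 3.31 for vehicle over undifferentiated cells (SE 0.0571, adjusted p = 4.77e-12), with 4.22% of genes above it, and 0.47 for MIZ over undifferentiated cells (SE 0.0535, adjusted p = 1.59e-05). The antisense gene Gm45091, which runs through the Cebpa start, was low, at 0.735 CPM with MIZ, 2.22 CPM with vehicle and 0.753 CPM in undifferentiated cells, and its log2 fold change was -1.59 for MIZ over vehicle.

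Cebpg, a partner with little activating function of its own, had 56.7, 56.9 and 57.1 CPM with MIZ, 140.2, 128.7 and 126.1 CPM with vehicle, and 59.7, 62.6 and 60.2 CPM in undifferentiated cells. MIZ and undifferentiated libraries stood side by side well below the vehicle libraries. The log2 fold change of Cebpg was -1.21 for MIZ over vehicle (SE 0.0484, adjusted p = 2.21e-09) and 1.11 for vehicle over undifferentiated cells (SE 0.0481, adjusted p = 2.72e-09). For MIZ over undifferentiated cells it was -0.10 (SE 0.0482, adjusted p = 0.0998) and did not pass, although the libraries did not overlap. That difference did pass, at the same size, without vehicle replicate 1 (-0.10, adjusted p = 0.0388). Pepd, the peptidase gene on the far side of Cebpg from Cebpa, had a log2 fold change of -0.040 for MIZ over vehicle (adjusted p = 0.518).

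Ddit3, which encodes the stress factor CHOP, had 60.4, 63.9 and 57.8 CPM with MIZ, 101.8, 100.7 and 108.1 CPM with vehicle, and 28.2, 25.01 and 26.0 CPM in undifferentiated cells. The 3 groups were apart, with MIZ in the middle. The log2 fold change of Ddit3 was -0.77 for MIZ over vehicle (SE 0.0574, adjusted p = 3.67e-07), 1.97 for vehicle over undifferentiated cells (SE 0.0596, adjusted p = 1.61e-10) and 1.20 for MIZ over undifferentiated cells (SE 0.0591, adjusted p = 2.53e-08). Mars, which overlaps its last bases on the opposite strand, was higher with MIZ than with vehicle (log2 fold change 0.21, adjusted p = 0.00102).

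Differentiation with vehicle raised all 5 members over undifferentiated cells, where 36.2% of all genes tested were higher and 41.5% lower, and the libraries did not overlap for any of the 5 (80.7% of all genes tested). With MIZ, 4 of the 5 were called higher than in undifferentiated cells and none was called lower (33.7% and 33.3% of all genes tested). Again no libraries overlapped (74.4% of all genes tested), and for Cebpg the MIZ libraries were the lower ones. On the log2 scale, with the undifferentiated mean as 0% and the vehicle mean as 100%, the MIZ mean stood at 63.4% for Cebpb, 60.9% for Ddit3, 14.2% for Cebpa and -8.63% for Cebpg. For Cebpd it stood at 209.9%, above the vehicle mean, over a vehicle change that was itself small.

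**Figure D2:**
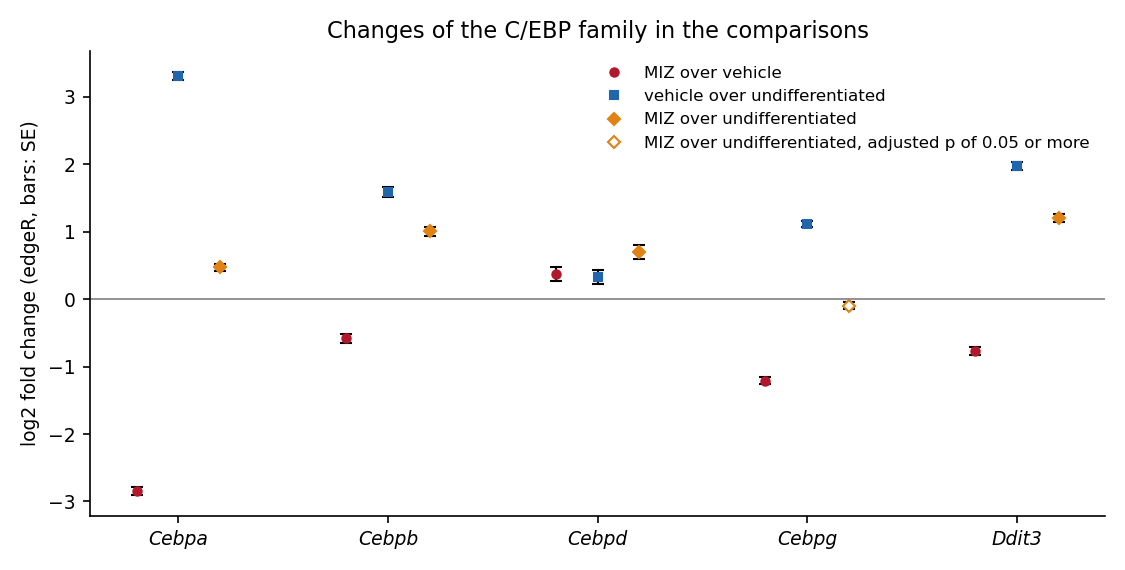
log2 fold change of each member in the 3 comparisons, from edgeR, with SE as bars, many of them shorter than the symbols. The open symbol is the Cebpg difference of -0.10 that did not pass, and Cebpd is the only gene with a positive MIZ over vehicle value (0.37).

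Genes used as markers of cells other than adipocytes moved with the groups too. The summed level of 7 mural and smooth muscle markers was 4057 to 5438 CPM with MIZ, 190.3 to 212.2 CPM with vehicle and 821.1 to 928.8 CPM in undifferentiated cells. Most of the sum with MIZ was Acta2 (3622 CPM with MIZ, 34.6 CPM with vehicle, 422 CPM in undifferentiated cells). Of the 7 markers, 5 were higher with MIZ than with vehicle, Cspg4 was lower (-2.35) and 1 was not called. Macrophages and granulocytes express C/EBPs as well, and 10 leukocyte markers summed to 937 to 1279 CPM with MIZ, 489.9 to 910.2 CPM with vehicle and 3655 to 3754 CPM in undifferentiated cells, with Mpo at 0 in undifferentiated cells. Between MIZ and vehicle that sum followed Lyz2 (480.5 CPM with MIZ, 193.2 CPM with vehicle) and Adgre1 (398.9 and 190.6 CPM), while of the 8 leukocyte markers tested these 2 were higher, Fcgr1 was lower and 5 were not called, with a median of -0.17. Over undifferentiated cells, 2 of the 8 were higher and 6 lower with MIZ. The summed levels of 7 preadipocyte and stromal markers were 5405 to 7159 CPM with MIZ, 3245 to 4062 CPM with vehicle and 14050 to 15290 CPM in undifferentiated cells. Most of that sum was Col1a1 (5698 CPM with MIZ, 3395 CPM with vehicle, 13870 CPM in undifferentiated cells), and of the 7 markers 3 were higher with MIZ than with vehicle, Cd34 was lower (-1.02) and 3 were not called. Bulk RNA does not show whether these genes came from other cells, and the part of such cells in the C/EBP levels was not tested. Endothelial markers were low, at 2.57 to 4.03 CPM with MIZ, 5.36 to 7.28 CPM with vehicle and 27.2 to 29.6 CPM in undifferentiated cells over 5 markers. Markers of hepatocytes, which also carry much Cebpa, summed to at most 0.734 CPM in any library, with Ttr at 0.

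The early members were then set against Cebpa within each library, with counts divided by the length of the merged exons. Cebpb had 4.71, 4.38 and 4.17 times the level of Cebpa per kb with MIZ, 0.866, 0.952 and 0.945 times with vehicle, and 3.06, 3.01 and 3.09 times in undifferentiated cells. Thus the vehicle libraries were the only ones with at least as much Cebpa as Cebpb on this scale. Cebpd had 1.24, 1.05 and 0.849 times the level of Cebpa with MIZ, 0.125, 0.110 and 0.104 times with vehicle, and 0.937, 0.855 and 0.888 times in undifferentiated cells. For Cebpd the MIZ and undifferentiated libraries overlapped, and both stood far above vehicle.

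In limma's test of log2 CPM minus that of Cebpa, the log2 ratio for MIZ minus vehicle was 3.20 for Cebpd (SE 0.115, adjusted p = 3.23e-12) and 2.26 for Cebpb (SE 0.0649, adjusted p = 3.06e-13). It was 2.07 for Ddit3 (adjusted p = 2.31e-12) and 1.63 for Cebpg (adjusted p = 7.26e-11). With Cebpa this much lower, the ratio to it was called higher with MIZ for 95.2% of all other genes tested, and the direction is not particular to these 4. For vehicle minus undifferentiated cells the log2 ratio was -1.73 for Cebpb and -2.99 for Cebpd, with 95.3% of other genes lower.

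Relative to undifferentiated cells the background was different, with 12.1% of other genes higher against Cebpa with MIZ and 60.7% lower. Here the log2 ratio to Cebpa was 0.53 for Cebpb (SE 0.0649, adjusted p = 8.41e-06) and 0.73 for Ddit3 (SE 0.0723, adjusted p = 1.21e-06), both higher with MIZ, and -0.57 for Cebpg (SE 0.0774, adjusted p = 2.33e-05). For Cebpd it was 0.21 (SE 0.115, adjusted p = 0.116) and did not pass. Without MIZ replicate 3 it was 0.35 (adjusted p = 0.00653), without MIZ replicate 1 it was 0.082 (adjusted p = 0.503), and without vehicle replicate 1 it was 0.21 (adjusted p = 0.0494). An exact two-sided permutation test of 3 against 3 libraries cannot go below p = 0.1, which 11 of the 12 ratio differences reached (0.109 after Benjamini-Hochberg adjustment over the 12), and the last gave an exact p of 0.4.

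**Figure D3:**
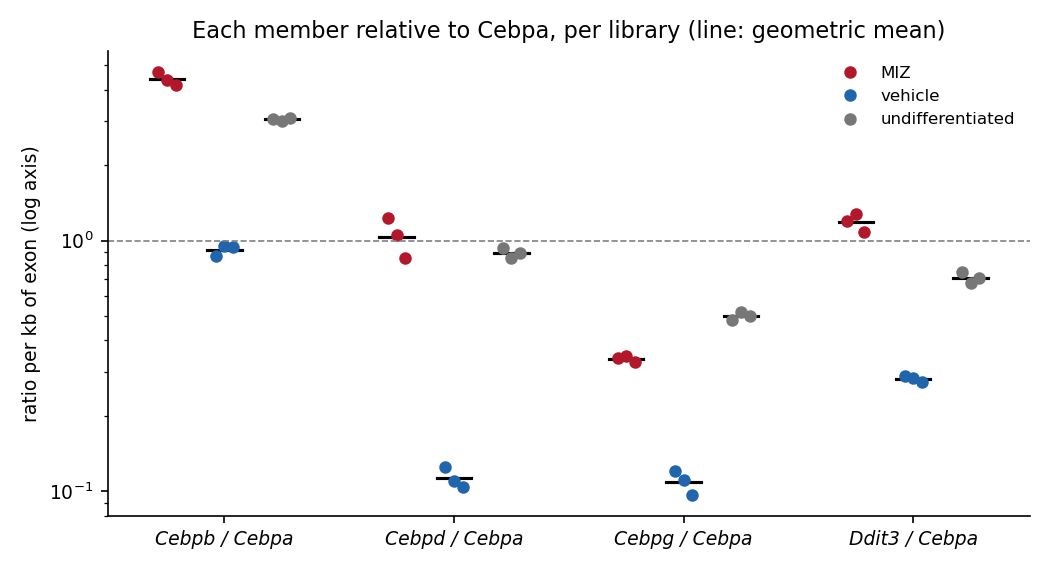
Level of Cebpb, Cebpd, Cebpg and Ddit3 per kb of exon relative to Cebpa in the same library, on a log axis, with MIZ, vehicle and undifferentiated cells from left to right. Points are libraries and lines geometric means. The arithmetic means for Cebpb were 4.42 with MIZ, 0.921 with vehicle and 3.05 in undifferentiated cells.

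Per kb of exon, the 5 genes together reached 239.0 ± 10.5 CPM with MIZ, 520.9 ± 33.6 CPM with vehicle and 133.1 ± 3.20 CPM in undifferentiated cells (SD, n = 3 each). Cebpa made up 12.6% of that sum with MIZ, 41.2% with vehicle and 16.2% in undifferentiated cells. Cebpb made up 55.3% with MIZ, 38.0% with vehicle and 49.6% in undifferentiated cells. Cebpd held 13.03% with MIZ, 4.66% with vehicle and 14.5% in undifferentiated cells. Cebpg held 4.24% with MIZ, 4.52% with vehicle and 8.14% in undifferentiated cells.

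The order of the levels per kb thus differed between the groups. With MIZ, Cebpb led at 132.3 CPM per kb, followed by Ddit3 at 35.4, Cebpd at 31.2 and Cebpa at 29.97, 3 genes whose library ranges touched in that order, and Cebpg was last at 10.1. With vehicle, Cebpa at 214.8 and Cebpb at 198.1 CPM per kb had overlapping ranges, Ddit3 followed at 60.4, and Cebpd at 24.2 and Cebpg at 23.4 overlapped again. In undifferentiated cells, Cebpb stood at 65.9 CPM per kb, Cebpa at 21.6, Cebpd at 19.3, Ddit3 at 15.4 and Cebpg at 10.8, with no overlap between neighbours. The lead of Cebpa with vehicle rests on the length used, since over exon bases shared with no other gene Cebpb had 249.9 CPM per kb and Cebpa 219.1. The place of Cebpa above Cebpd in undifferentiated cells rests on it too. Over those bases Cebpd had 22.72 CPM per kb there and Cebpa 22.04, and their library ranges overlapped. With vehicle, Cebpd (26.8 to 30.46 CPM per kb) and Cebpg (22.75 to 25.29) did not overlap over those bases.

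**Figure D4:**
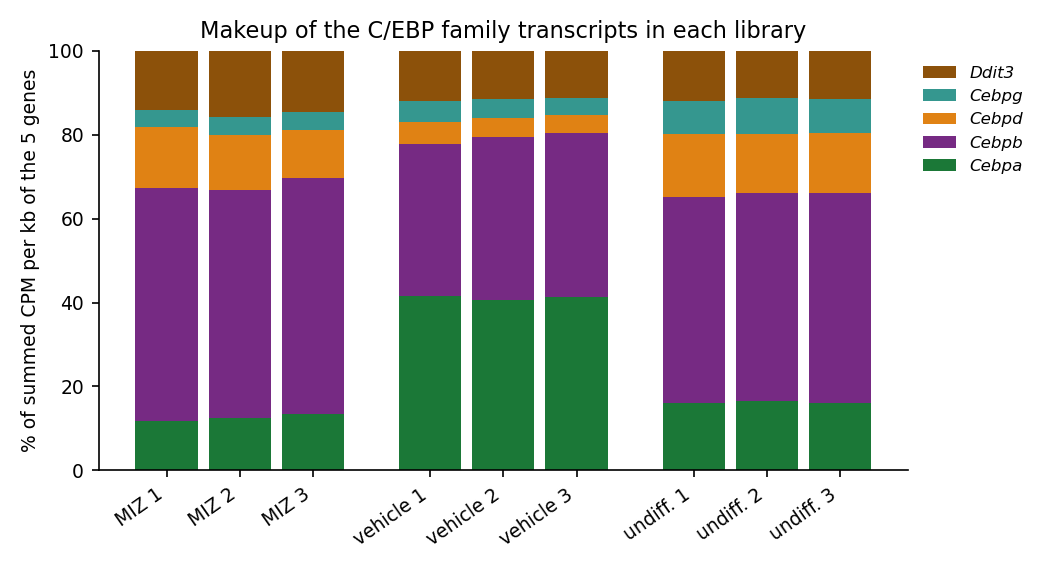
Share of each gene in the summed CPM per kb of the 5 genes, for each library, with MIZ, vehicle and undifferentiated cells from left to right. Cebpa takes 40.7% to 41.7% in the vehicle libraries and 11.8% to 13.5% in the MIZ libraries.

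Genes next to the members on the chromosome moved in either direction. Gm14320, the neighbour of Cebpb at lower coordinates, was lower with MIZ than with vehicle, as Cebpb was (log2 fold change -1.50, adjusted p = 0.0196), at 0.119 CPM with MIZ and 0.330 CPM with vehicle. The noncoding gene A530013C23Rik, 759 bases beyond Cebpb, was higher with MIZ than with vehicle (log2 fold change 0.80, adjusted p = 0.000214), where Cebpb was lower. Mzt2, the neighbour of Cebpd at lower coordinates, had -1.13 (adjusted p = 9.16e-07), where Cebpd was higher, and Pkp2 on its other side had 0.13 (adjusted p = 0.130). The noncoding gene Gm35665, 13118 bases from Cebpa, had -1.26 (adjusted p = 0.0117) at 0.375 CPM with MIZ and 0.880 CPM with vehicle. Gm44836, inside Cebpg on the same strand, had -0.59 (adjusted p = 0.00670) at 2.29 CPM with MIZ and 3.44 CPM with vehicle, and shares 73 of the 5621 exon bases of Cebpg. Arhgap9, 25676 bases beyond Ddit3, had 0.84 (adjusted p = 0.000403), where Ddit3 was lower, and Gm4189, which shares 13 bases with Ddit3, had -1.50 at under 1 CPM in each group. Gm20492, the neighbour of Ddit3 at lower coordinates, had 0.073 (adjusted p = 0.879), and Gm45095, antisense to Cebpg, had 0.029 (adjusted p = 0.963), both under 1 CPM too.

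Of the other C/EBP and related bZIP genes, 7 of 8 were tested, and all 7 were lower with MIZ than with vehicle (35.1% of all genes tested). Their median log2 fold change was -0.67, where that over all genes was 0.023. The eighth, Cebpe, the granulocyte member, had 3 counts in all. Atf4, the activator of Ddit3, averaged 241.8 ± 2.15 CPM with MIZ, 348.9 ± 9.14 CPM with vehicle and 146.1 ± 2.88 CPM in undifferentiated cells (log2 fold change -0.53 over vehicle). Nfil3, a repressor that binds related sites, averaged 45.4 ± 2.41 CPM with MIZ, 70.9 ± 2.58 CPM with vehicle and 19.5 ± 2.37 CPM in undifferentiated cells (-0.64). The clock output gene Dbp fell by 1.22 on the log2 scale relative to vehicle and Tef, of the same class, by 0.67, both below undifferentiated cells too (-1.10 and -0.85), and 18.01% of the exon bases of Dbp are shared with other genes. Cebpz, a CCAAT-binding protein outside the bZIP class, had a log2 fold change of -0.23. Hlf and Batf3, with log2 fold changes of -0.70 and -2.89, were under 2 CPM in every group.

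Among 18 genes listed as upstream regulators of the early C/EBPs, 10 were lower and 5 higher with MIZ than with vehicle (median log2 fold change -0.24). Among all genes tested 35.1% were lower and 35.9% higher. Whether each gene acts on the early C/EBPs in these cells was not tested. The largest fall was that of Stat5a, a transducer of growth hormone signals, at 23.9 ± 0.951 CPM with MIZ, 107.3 ± 9.52 CPM with vehicle and 22.0 ± 0.502 CPM in undifferentiated cells (log2 fold change -2.17). Zbtb16, a zinc finger gene induced by glucocorticoids, averaged 29.1 ± 9.69 CPM with MIZ, 114.8 ± 6.87 CPM with vehicle and 1.05 ± 0.176 CPM in undifferentiated cells (-1.97). The histone demethylase gene Kdm4b had -0.71 and the cAMP-responsive modulator gene Crem -0.58. Klf4, an activator of Cebpb in mouse preadipocytes, rose to 60.5 ± 3.38 CPM with MIZ, against 24.6 ± 2.49 CPM with vehicle and 35.4 ± 0.808 CPM in undifferentiated cells (1.30). The CREB coactivator genes Crtc3 (0.68) and Crtc1 (0.63), Creb1 itself (0.24) and the AP-1 gene Fosl2 (0.45) were the others that rose, of which Crtc1, Creb1 and Fosl2 are named after their values were seen. Over undifferentiated cells, 12 of the 18 were higher and 3 lower with MIZ (33.7% and 33.3% of all genes tested), and 12 higher and 4 lower with vehicle (36.2% and 41.5%).

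Genes whose products modify C/EBP proteins or bind them showed no common direction, with 12 higher and 8 lower of 25 for MIZ over vehicle (35.9% and 35.1% of all genes tested) and a median of -0.037. Trib2, a pseudokinase known to direct C/EBPα to degradation, had 32.2 ± 1.73 CPM with MIZ, 12.8 ± 0.560 CPM with vehicle and 29.3 ± 2.7 CPM in undifferentiated cells (log2 fold change 1.34 over vehicle). Its relative Trib3, a target of CHOP, moved the other way, with 79.1 ± 8.05 CPM with MIZ, 160.1 ± 11.6 CPM with vehicle and 63.2 ± 2.73 CPM in undifferentiated cells (-1.02). The chromatin remodelling ATPase gene Smarca4 (0.67), the SUMO ligase gene Pias1 (0.65) and the arginine methyltransferase gene Carm1 (0.57) rose with MIZ, and the retinoblastoma gene Rb1 fell (-1.03). Carm1 and Rb1 share 21.1% and 14.9% of their exon bases with other genes.

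**Figure D5:**
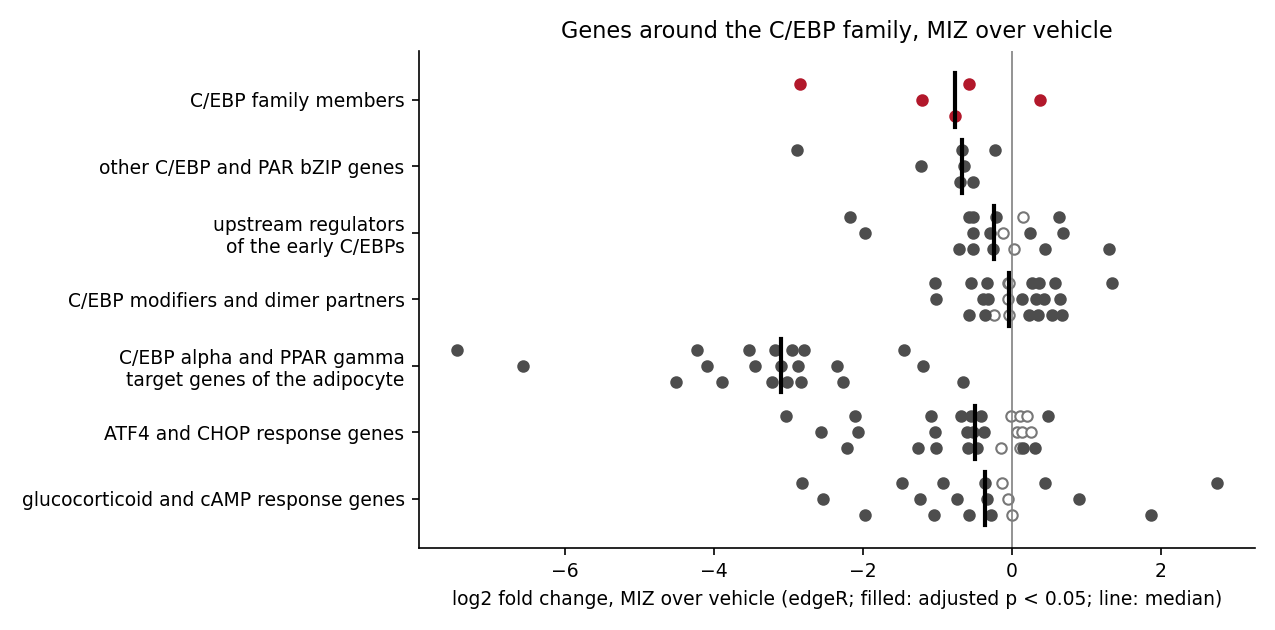
log2 fold change for MIZ over vehicle of the 5 members and of the tested genes of 6 lists, each point a gene, filled where edgeR's adjusted p was under 0.05, with the median as a line. The medians are -3.10 for target genes of C/EBPα and PPARγ, -0.50 for ATF4 and CHOP response genes and -0.037 for modifiers and partners.

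The known adipocyte targets of C/EBPα and PPARγ were lower with MIZ than with vehicle for all 21 tested of 22 (median log2 fold change -3.10), where 35.1% of all genes tested were lower. Pck1, which encodes the enzyme of glyceroneogenesis, had 0.605 ± 0.233 CPM with MIZ and 102.7 ± 5.33 CPM with vehicle (log2 fold change -7.45). The desaturase gene Scd1 had -6.57, the insulin-responsive glucose transporter gene Slc2a4 -4.51 and the fatty acid binding protein gene Fabp4 -4.22. Even so, 20 of the 21 exceeded their undifferentiated level with MIZ (33.7% of all genes tested), as did 20 with vehicle (36.2%). Fabp4, for example, averaged 476.8 ± 31.8 CPM with MIZ and 4.96 ± 0.157 CPM in undifferentiated cells. The exception in both comparisons, named after its values were seen, was the insulin receptor substrate gene Irs1, with -2.20 for MIZ and -1.01 for vehicle over undifferentiated cells. Lep, with 7 counts in all, was not tested. Several of these genes are also among the adipocyte markers given above.

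The list of ATF4 and CHOP response genes also holds Atf4 itself and eIF2α kinase genes, which act upstream of ATF4. Whether the genes of this list answered to ATF4 or CHOP in these cells was not tested. Of its 28 genes, 17 were lower and 3 higher with MIZ than with vehicle (35.1% and 35.9% of all genes tested). The median log2 fold change was -0.50. Ero1l, the endoplasmic reticulum oxidase gene and a known CHOP target, had 269.4 ± 5.92 CPM with MIZ, 2202 ± 361.3 CPM with vehicle and 45.3 ± 1.96 CPM in undifferentiated cells (-3.03). The cystathionine lyase gene Cth (-2.57), the lipoprotein receptor gene Vldlr (-2.21) and Hspa5 (-2.11), which encodes the chaperone BiP, fell as well. Those higher with MIZ were Nupr1 (0.48), a stress-induced chromatin protein gene, and the eIF2α kinase genes Eif2ak4 (0.31) and Eif2ak3 (0.14), of which Eif2ak3 is named after its value was seen. This count of 3 was 8 without vehicle replicate 1 and 5 without MIZ replicate 1, whereas 16 or 17 were lower in every fit without a library. Relative to undifferentiated cells, 24 of the 28 were higher with MIZ (33.7% of all genes tested) and 26 with vehicle (36.2%).

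Glucocorticoids and cAMP are signals of the induction medium, whose dexamethasone and IBMX were present only for the first 2 days. The differentiated libraries are from 6 days. Of 19 genes that respond to these signals, 12 were lower and 4 higher with MIZ than with vehicle (35.1% and 35.9% of all genes tested). The number lower was 9 to 12 in fits without each library, and also 9 to 12 under the other settings. The median log2 fold change was -0.36. The metallothionein genes Mt1 (-2.82) and Mt2 (-2.54, with 73.5% of its exon bases shared with another gene) and the Krüppel-like factor gene Klf9 (-1.47) fell. The kinase gene Sgk1 rose to 89.8 ± 12.2 CPM with MIZ, against 13.6 ± 3.53 CPM with vehicle and 32.6 ± 0.982 CPM in undifferentiated cells (2.75). The nuclear receptor gene Nr4a1 had 0.90. The other genes that rose were Fosl2 and, under 5 CPM in each group and named after its value was seen, Nr4a3 (1.87). Over undifferentiated cells, 12 were higher with MIZ (33.7% of all genes tested) and 13 with vehicle (36.2%).

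The genes whose pattern over the 9 libraries lay nearest to each member were found from the root mean square difference of log2 CPM, centred for each gene, among 11773 candidates. For Cebpa these were Bckdha (0.0692), a subunit gene of the branched-chain ketoacid dehydrogenase, Slc25a22 (0.0792), a glutamate carrier gene, and Mpc1 (0.0811), a pyruvate carrier gene. For Cebpb they were the actin-severing gelsolin gene Gsn (0.0515), Pam16 (0.0668) and the small heat shock protein gene Hspb8 (0.0835). For Cebpd they were Nod1 (0.0703), a sensor of bacterial peptidoglycan, Elmsan1 (0.0896) and Carhsp1 (0.0934). For Cebpg they were Mmab (0.0430), a cobalamin enzyme gene, Tomm40l (0.0611) and Zfyve21 (0.0612), and for Ddit3 the caveolar protein gene Cavin1 (0.0868), Mpp6 (0.0985) and Map9 (0.105). Of these, Tomm40l, Bckdha, Mpc1 and Pam16 share 64.3%, 61.7%, 23.1% and 18.7% of their exon bases with other genes. The distances describe these 9 libraries only and carry no test.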

How the data were processed

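RNA of 9 libraries of mouse SVF cells (3 with MIZ, 3 with vehicle, 3 undifferentiated) was analysed. Per the labels and the study's methods, the authors depleted ribosomal RNA, selected polyadenylated RNA with oligo-dT beads, used Trim Galore 0.6.7 for trimming and STAR for alignment to mm10 (GRCm38), and deposited raw counts per gene, not normalized. The sources name HTSeq in one place and the counting of STAR in another, and the annotation release and strand setting are not given in the sources used here. Symbols were matched to 32158 of 32285 identifiers.

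A gene was tested where 3 or more libraries held 5 or more of its counts (17173 genes, with 99.99% of counts), and edgeR 4.0.16 (R 4.3.3) fitted its quasi-likelihood model to all 9 libraries after TMM, with a Benjamini-Hochberg threshold of 0.05. Ratios to Cebpa were tested with limma 3.58.1 on log2 CPM (prior count 2) minus that of Cebpa. DESeq2 1.42.0, other scalings and filters, only the 6 libraries compared, a replicate block and fits without each library were alternatives, and the scripts were tested on simulated data. Exon lengths and overlaps came from GENCODE vM21 and promoters from RefSeq. Of the 5 members 4 had a promoter entry, and Cebpd had none. Overlaps of exon bases are with genes in the count tables.

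The members and lists were chosen with earlier results of these data known. Besides the members, the text names, per list, the largest called changes for MIZ over vehicle (at most 4 in the main direction and 2 in the other, at 5 CPM or more in a group), all tested related bZIP genes, the 3 nearest patterns per member and overlapping or adjacent genes (of which Gm35611 and Gm45096 had too few counts to be tested). Figures used Python 3.11.15 and matplotlib 3.10.9.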

Additional observations from a re-analysis of the deposited data

How the results depend on the processing

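No member fold change or ratio to Cebpa changed direction under any alternative run. Of 255 member fold changes under 17 alternatives each, 250 stayed on their side of the threshold. The log2 fold change of Cebpd for vehicle over undifferentiated cells, 0.32, lost its call when libraries were scaled by total counts without TMM (0.15, adjusted p = 0.212) and without undifferentiated replicate 2 (adjusted p = 0.0560), and it ranged from 0.28 to 0.38 when each library was left out. Scaling by total counts shifted the median of all genes by 0.14 for MIZ over vehicle and by -0.18 for vehicle over undifferentiated cells (log2). A change of scaling moves the genes of a comparison nearly alike, so this shift cannot decide which value of Cebpd holds. The difference of Cebpg for MIZ over undifferentiated cells, -0.10, passed with total counts (-0.14, adjusted p = 0.0285), in a fit of only the 6 libraries compared (-0.11, adjusted p = 0.0290) and without vehicle replicate 1, with a range of -0.12 to -0.083 without each library. The count of members lower in that comparison was therefore 1 in place of 0 in these fits, and 0 to 1 without each library. The log2 ratio of Cebpd to Cebpa for MIZ minus undifferentiated cells ranged from 0.082 to 0.35 without each library.

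The labels do not say whether replicate numbers pair the samples. Deviations of libraries with the same number correlated at -0.045 to 0.063, and those with different numbers at -0.054 to 0.068. With 3 libraries a group, these values cannot show whether samples were paired. With the replicate number as a block, this ratio of Cebpd to Cebpa was 0.21 and passed (adjusted p = 0.0390), and no other member call changed. Of 144 ratios, 141 stayed on their side of the threshold. Of 612 list counts, 598 stayed within 1.5 times. With total counts, the ATF4 and CHOP response genes higher with MIZ than with vehicle numbered 7 and with upper-quartile scaling 6, in place of 3. For glucocorticoid and cAMP response genes lower with MIZ than in undifferentiated cells, the count was 5 in place of 3 with total counts, in the fit of 6 libraries and without vehicle replicate 1. The cause of these differences was not tested. With 3 libraries a group, and none of them tied to an animal in the labels, small changes such as those of Cebpd and Cebpg are the least certain.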
